A study of Bos taurus with 6 samples.

Results

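Position-locked H3K27me3 blocks are stretches of the bovine autosomes in which 2 embryonic stem cell lines gave H3K27me3 peaks at nearly the same bases. The blocks were chosen by the positions of the H3K27me3 summits of both lines. Summits of lines A and B on chromosomes 1 to 29 were pooled and chained wherever neighbours lay at most 5 kb apart. A chain was kept when it held at least 5 summits of each line and the median distance from a summit to the nearest summit of the other line was at most 30 bases. This gave 152 blocks out of 398 autosomal regions with at least 5 summits of each line. They held 7717 member summits, of 30747 autosomal and 45909 deposited H3K27me3 summits. Since the rule used these positions, the distances between lines and the scores of H3K27me3 are given below as a description, with no test. The H3K4me3 lists did not enter the rule.

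The cells are primed pluripotent stem cells of cattle (Bos taurus), derived from blastocysts and studied at passage 12 as line A and line B. Both lines were grown on mouse embryonic fibroblasts with FGF2 and the WNT inhibitor IWR1, and the fibroblasts were removed with magnetic beads before chromatin was made. H3K4me3 and H3K27me3 were profiled with 1 library per line and mark, so every comparison of lines is between single libraries and no test across lines was possible. The 2 input libraries, made without antibody, were not analysed here, and whether the blocks stand out in them was not tested. No genes were read from the lists, so the cell type was not checked against marker genes, and whether the blocks lie in genes was not analysed. Blocks are set beside the 215 regions whose distance was over 100 bases, with no test of the difference between these classes.

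H3K27me3 is written by Polycomb repressive complex PRC2 and bound by PRC1, and is known for covering the silent promoters of developmental regulators in pluripotent cells and for spreading over long stretches of silent chromatin. H3K4me3, written by MLL and SET1 complexes, marks active promoters, and the pair of marks together defines bivalent promoters. A summit is the base of a peak where the sequenced fragments pile up highest. The score of a peak is the −log10 of its p or q value as the peak caller wrote it, is the authors' own value, and moves with the depth of its library, which is unknown. Scores of different libraries are set side by side below only as values.

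The blocks covered 5.38 Mb in all. They ran from 4.32 kb to 383 kb, with a median of 17.9 kb, and 82 of the 152 were shorter than 20 kb. A block held 5 to 292 summits of line A, with a median of 14, and 5 to 259 of line B, with a median of 13. Line A had more summits in 118 blocks, line B in 5, and the counts were equal in 29. The 10 fullest blocks held 33.4% of the members, so members are not independent places. Members of 1 block share a stretch of chromatin and a library.

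Members made up 4109 of 17664 autosomal H3K27me3 summits in line A (23.3%, 95% Wilson interval 22.6% to 23.9%) and 3608 of 13083 in line B (27.6%, 26.8% to 28.4%). Wilson intervals here cover counting error only. Those on shares of summits take the summits as independent, which summits of 1 block are not, and are likely too narrow. The share was far higher among strong peaks. Of the 1766 highest-scoring autosomal summits of line A, 1242 (70.3%, Wilson interval 68.2% to 72.4%) were members, and of the 1308 of line B, 1003 (76.7%, 74.3% to 78.9%). These are the top 10% of each list. Of the 8832 lowest-scoring summits of line A only 121 (1.37%) were members, and of the 6541 of line B 135 (2.06%). Close summits scored higher outside the blocks too. In chains with under 5 summits of a line, those within 30 bases of the other line had median scores of 32.1 (line A) and 24.2 (line B). Those over 100 bases away had 6.17 and 6.83. How far a rule on closeness by itself picks strong peaks was not tested.

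Within the blocks the positions of the lines met to within a few bases. The median distance from a member to the other line was 11 bases for line A and 8 bases for line B. In 405 cases the summits of both lines lay on the very same base. Within 10 bases lay 49.6% (line A) and 56.5% (line B) of the members, and within 30 bases 71.0% and 80.8%. In the 215 regions with distances over 100 bases, 1 summit of each line shared its base. Within 30 bases of the other line lay 7.98% (line A) and 8.88% (line B) of their summits. The classes were split by this same distance, so this contrast follows from the rule. Members without a close partner were more frequent in line A, the line with more summits. In line A 842 members (20.5%) lay over 100 bases from any summit of line B, with a median score of 62.4 against 135 for those within 30 bases. In line B the count was 341 (9.45%), with a median score of 76.3 against 137.

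The block chr13:83062314-83072938 (UMD3.1) shows the pattern at single summits, and was picked for its distance. It is 10.6 kb long, and its median distance of 0 bases was the smallest of all blocks. At base 83062314 both lines had a summit, with a score of 1309 for line A and 898 for line B. At base 83066392 the scores were 736 and 717, and at base 83071557, the strongest place in the block, 2033 and 1804. Of the 7 summits of line B, 5 lay on exactly the base of a summit of line A, another was 1 base away and the last 28 bases away. Line A had another summit at 83065797, with a score of 533, and another at 83068474, with 526, where line B had no summit of its own. Neither line had an H3K4me3 summit in or within 1 kb of this block.

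Most ends of the blocks were closely shared too, measured from the outermost summit of line A to that of line B. The outermost summits of the lines differed by at most 30 bases at 216 of 304 block ends (71.1%), with a median difference of 10.5 bases, and fell on the same base at 30 ends. In 76 blocks both ends differed by at most 30 bases, while 25 ends differed by over 1000 bases. In the regions with distances over 100 bases 24 of 430 ends (5.58%) met within 30 bases, and the median difference was 799 bases. The end summits entered the distances that split the classes, so this contrast is not independent of the rule. Neighbouring members of a line were a median of 1193 bases apart in line A (quartiles 903 and 1617) and 1338 in line B (990 and 1843). In the regions with distances over 100 bases the spacing was 1839 and 1940 bases.

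H3K27me3 summits were much rarer beside a block than inside it. Inside, the blocks held 7.63 summits of line A and 6.70 of line B per 10 kb. In the 50 kb on either side, the first 5 kb of which is empty by the way chains are made, the density was 0.330 and 0.265 per 10 kb. In 107 blocks (70.4%) line A had no summit at all in these flanks, and in 109 (71.7%) line B had none. The corresponding counts for the regions with distances over 100 bases were 66 of 215 (30.7%) and 75 of 215 (34.9%). The flanks of those regions held 0.517 summits of line A and 0.431 of line B per 10 kb.

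**Figure D1:**
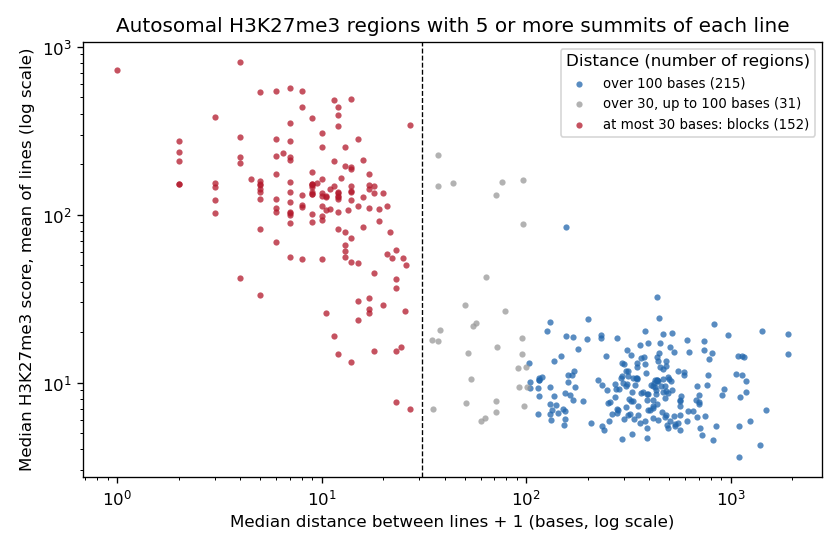
Each point is 1 of the 398 autosomal H3K27me3 regions with at least 5 summits of each line. The horizontal axis is the median distance between lines plus 1, in bases on a log scale, the vertical axis is the median H3K27me3 score averaged over the lines, on a log scale, and the dashed line marks the limit of 30 bases. The 152 blocks left of the line lie mostly higher than the 215 regions with distances over 100 bases.

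Blocks scored high and alike in both lines. The median score over members was 117 in line A (quartiles 57.0 and 229) and 127 in line B (60.6 and 234). Over all autosomal summits it was 11.4 and 13.2, and in the regions with distances over 100 bases 8.62 and 8.34. The medians of single blocks ran from 7.25 to 784 for line A and from 4.81 to 834 for line B. Many blocks were close to each other in score: in 67 of 152 the median lay between 80 and 200 in both lines, limits set with the values known. The highest block median among the regions with distances over 100 bases was 82.4 for line A and 87.3 for line B. Only 2 blocks by line A and 4 by line B had a median below that of all autosomal summits of their list.

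Single members carried a like score in both lines. Among the 2916 members of line A with a summit of line B within 30 bases, the score in line A was a median of 1.01 times that in line B, with quartiles of 0.863 and 1.21. The scores followed each other over a wide range (Spearman rho = 0.920, across summits of the same 2 libraries, given as a description). For the 159 such pairs in the regions with distances over 100 bases the median ratio was 1.31 and rho 0.742.

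The 5 blocks with the highest scores were spread over 4 chromosomes. The strongest, chr29:19399037-19448739, had a median score of 784 over 33 summits of line A and 834 over 28 of line B. The highest summits reached 3891 and 3997, 1 base apart at 19442297 and 19442298. It was followed by chr13:83062314-83072938, described above, with 736 and 725. The block chr4:41465598-41497187 had medians of 493 and 638. The block chr3:1019612-1047758 had 559 and 536, and held the highest-scoring member of each line, 5750 at base 1041936 for line A and 6094 at base 1041939 for line B. The block chr13:48991814-49020188 had 476 and 608. In each of these 5 blocks the medians of the lines were within 1.5-fold of each other, as in 126 of the 152.

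The 5 blocks with the lowest scores were chr25:484-11514, with medians of 7.25 and 6.60, chr14:601387-614007, with 10.6 and 4.81, chr21:2003929-2076158, with 13.8 and 12.8, chr28:2407740-2423977, with 11.5 and 18.1, and chr21:22998803-23013002, with 19.7 and 11. A low median did not mean uniformly low summits: in the block of 72.2 kb on chromosome 21 single members reached 768 for line A and 946 for line B.

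**Figure D2:**
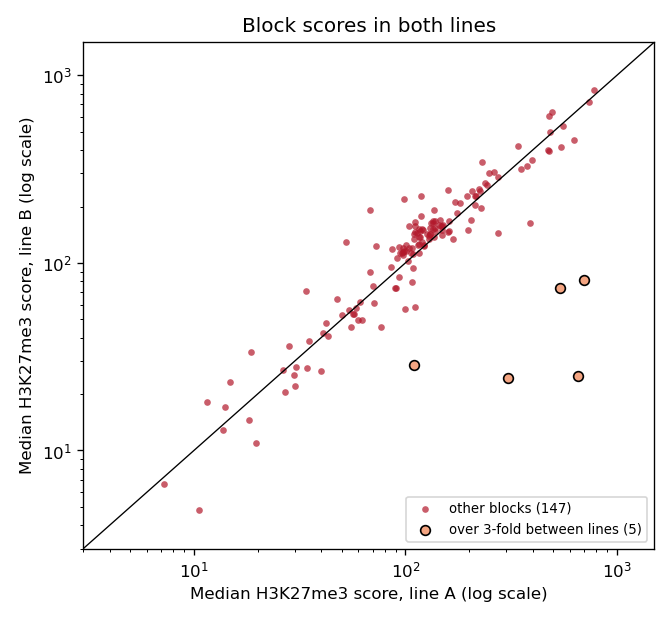
Each point is 1 of the 152 blocks, with its median H3K27me3 score in line A on the horizontal axis and in line B on the vertical axis, both on log scales, and the diagonal marks equal scores. Of the points, 147 run along the diagonal and 5, drawn with a black rim, lie below it, with scores 3.85 to 26.5 times as high in line A.

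In 5 blocks the lines differed by more than 3-fold in H3K27me3 score, a limit set with the values known, and in all 5 line A was higher. In the other 147 blocks line A was at most 2.38 times as high as line B and line B at most 2.82 times as high as line A. The block chr6:19789075-19803952 had a median score of 658 over 12 summits of line A and 24.8 over 8 of line B, 26.5 times as high in line A. Every one of its summits in line A, from 134 to 2971, lay above every summit of line B, from 5.66 to 57.2. On chromosome 27 the block chr27:43559684-43580814 had 306 and 24.4, and chr27:23690718-23726720 had 539 and 73.1. The block chr4:103639609-103663797 had 702 and 81.2, and chr11:107299361-107310219 had 110 and 28.5. In these last 4 blocks the scores of the lines overlapped at single summits. The summits of the lines still lay close together, with a median distance of 5 to 26 bases. Such a difference was not limited to the blocks. It was found, again with line A higher, in 3 of the 31 regions at 31 to 100 bases (9.68%), where it reached 15.7-fold, and in 2 of the 215 at over 100 bases (0.930%), where it reached 3.20-fold, against 5 of the 152 blocks (3.29%).

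In the same 5 blocks the H3K4me3 scores ran the other way, higher in line B than in line A. The block chr4:103639609-103663797 had 10 H3K4me3 summits in line A with a median score of 524 and 13 in line B with a median of 1292. The block chr27:23690718-23726720 had 13 with a median of 589 and 17 with a median of 1277. The block chr6:19789075-19803952 had 4 with a median of 40.5 and 6 with a median of 231. The other two had 1 H3K4me3 summit in each line, scoring 254 for line A and 1282 for line B at chr27:43559684-43580814, and 121 and 404 at chr11:107299361-107310219. Over all autosomal H3K4me3 summits the median score was 38.6 for line A and 59.2 for line B. These 5 blocks held most of the strongest H3K4me3 summits found in any block. Of the 23 block summits among the 200 highest-scoring H3K4me3 summits of line A 21 lay in them, and all 26 of those among the 210 highest of line B. The 3 regions at 31 to 100 bases had the same order, with H3K4me3 medians of 21.0 and 408 at chr22:42397073-42438559, 620 and 822 at chr27:26327458-26389130, and 351 and 866 at chr8:61266656-61283648, in lines A and B. Of these 3, chr27:26327458-26389130 differed least, and the autosomal medians given above are also higher in line B. The 2 regions at over 100 bases with an H3K27me3 difference of more than 3-fold were not compared for H3K4me3. The cause of these differences between lines was not tested, and the depth of the libraries is unknown.

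The blocks were uneven over the chromosomes. Every autosome had at least 1 block and chromosome 4 had the most, 15. Chromosome 8, with 7 blocks, held 568 members of line A and 498 of line B, or 13.8% of all members, and chromosome 27, also with 7, held 493 and 424 (11.9%). On chromosome 27 members made up 64.7% (line A) and 72.7% (line B) of the H3K27me3 summits, and on chromosome 8 50.8% and 55.1%. On chromosomes 12, 17 and 23, with 1 block each, they made up 2.05% to 3.42%.

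**Figure D3:**
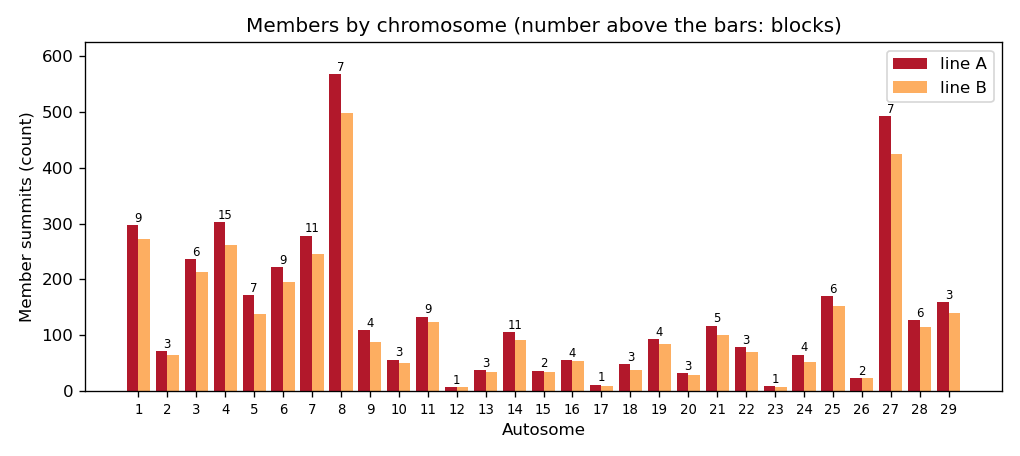
Bars give the number of member summits on each autosome in line A (dark) and line B (light), and the number above the bars is the count of blocks. Chromosomes 8 and 27 carry the most members in both lines, with 7 blocks each.

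The 2 fullest blocks were on those chromosomes, and 5 of the 10 fullest. The fullest, chr27:28556165-28939537, was 383 kb long, with 292 summits in line A at a median score of 129 and 259 in line B at 135. The next block upstream, chr27:28460983-28550955, ended 5.21 kb before it, the smallest gap between blocks, and held 45 and 37 summits at medians of 121 and 150. The second fullest, chr8:74485090-74804365, was 319 kb long with 237 and 204 summits at medians of 139 and 153. The third, chr3:82708041-82912208, was 204 kb long with 162 and 151 summits at medians of 105 and 120. The others of the 10 fullest were chr1:145293955-145452212, chr29:30225285-30386289, chr8:56714301-56855304, chr5:114106284-114241584, chr8:110659924-110762643, chr27:37558959-37650939 and chr6:17922275-18014899. Their lengths were 92.0 to 161 kb, and their median scores 111 to 276 for line A and 144 to 288 for line B. In all 10 the median was higher in line B, by less than 1.5-fold.

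**Figure D4:**
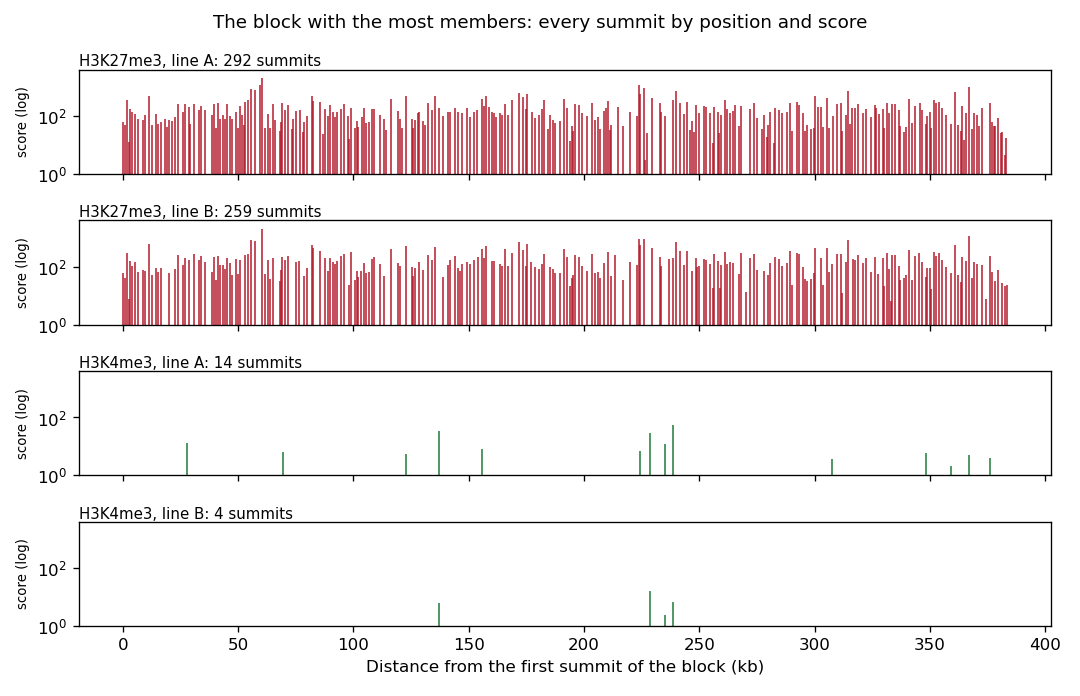
Each line is 1 summit of the fullest block, placed by its distance in kb from the first summit and as high as its score on a log scale. The upper panels show 292 (line A) and 259 (line B) H3K27me3 summits with near-identical profiles, and the lower panels show 14 and 4 H3K4me3 summits.

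Some blocks lay at the first bases of a chromosome, a group picked out after their positions were seen. In cattle the autosomes are acrocentric, with the centromere at one end. The first member lay within 2 kb of base 1 in 5 blocks. The block chr18:122-14592 had 10 summits in line A at a median of 33.8 and 6 in line B at 71.1. The block chr19:368-72989, the longest of them at 72.6 kb, had 53 and 47 summits at medians of 62.3 and 49.5. The blocks chr16:579-22116 and chr26:1658-12509 had medians of 54.4 and 56.4, and of 55.2 and 45.7. With chr25:484-11514, named above, 4 of the 5 had no H3K4me3 summit in either line, against 59 of all 152 blocks (38.8%). The first Mb of chromosome 14 held 10 blocks of 16 in the first Mb of all autosomes. These 10 covered 155 kb with 184 members, and their medians ran from 10.6 to 547 for line A and from 4.81 to 417 for line B. High and low medians alternated over the first 7 of them, and the last 3 were low. Among the 7, chr14:392923-406219 had medians of 476 and 397, chr14:437521-447307 59.8 and 49.7, chr14:489701-499637 547 and 417, and chr14:504979-537011 30.3 and 28.0. The region chr14:991721-1016085, which starts in the first Mb of chromosome 14, missed the limit of 30 bases, at 33.5 bases. How many of all autosomal H3K27me3 regions or summits lie at chromosome starts or in a first Mb was not counted. Whether blocks crowd there more than other regions was thus not tested. Over all blocks, those of chromosome 14 included, the median gap between neighbours on a chromosome was 8.41 Mb, and 13 gaps were at most 100 kb.

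H3K4me3, the mark the rule did not use, was sparser in the blocks than in the regions with distances over 100 bases. Counting H3K4me3 summits in or within 1 kb of a block, there were 0.689 of line A and 0.308 of line B per 10 kb of block length. The same values were 1.17 and 1.64 in those regions. The 1 kb on either side is not in the lengths, which raises these values, the more so for shorter regions. In or within 1 kb of a block lay 371 H3K4me3 summits of line A and 166 of line B, of 19966 and 20961 on the autosomes. The blocks cover only 5.38 Mb, and the density over the autosomes as a whole was not computed. Of the 152 blocks 67 had H3K4me3 of both lines (44.1%, Wilson interval 36.4% to 52.0%), against 64.1% of all 398 regions with at least 5 summits of each line, and 173 of the 215 regions with distances over 100 bases (80.5%, 74.7% to 85.2%). In the nearest class, the 31 regions at 31 to 100 bases, the share was close to that of the blocks, 15 of 31 (48.4%, 32.0% to 65.2%). In 25 blocks line A alone had H3K4me3. In 1 line B alone did, chr9:53544262-53593577, with a single summit scoring 3.02. In 59 (38.8%) there was none, against 13 of 31 (41.9%) in the nearest class. The longest of the 59 was chr28:39276403-39358651 at 82.2 kb with 64 and 60 H3K27me3 summits. Blocks with H3K4me3 of both lines were longer, with a median of 29.1 kb against 12.6 kb for those with none. They also scored higher for H3K27me3, with medians of 132 and 144 in lines A and B against 67.9 and 71.1. How far the greater room for H3K4me3 in a longer block enters these differences was not tested.

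Seen from the members, 472 of 4109 in line A (11.5%, Wilson interval 10.5% to 12.5%) had an H3K4me3 summit of the same line within 1 kb, against 31.1% of all autosomal H3K27me3 summits. In line B 171 of 3608 did (4.74%, 4.09% to 5.48%), against 34%. At close range the shares were nearer to the background. Within 30 bases lay an H3K4me3 summit for 184 members of line A (4.48%), against 4.38% of all autosomal H3K27me3 summits, and for 83 of line B (2.30%), against 4.13%.

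Many of the H3K4me3 summits in the blocks lay on or beside an H3K27me3 summit, and others lay further off. Their median distance to the nearest H3K27me3 summit of the same line was 31 bases for line A and 30.5 for line B, with upper quartiles of 204.5 and 273.25, against 360 and 406 bases in the regions with distances over 100 bases. Within 30 bases lay 184 of 371 in line A (49.6%, Wilson interval 44.5% to 54.7%) and 83 of 166 in line B (50%, 42.5% to 57.5%). In the regions at 31 to 100 bases the shares were 14 of 61 (23.0%) and 21 of 76 (27.6%), and in those with distances over 100 bases 9.35% and 8.24%. Over all autosomal H3K4me3 summits they were 3.88% and 2.58%. The H3K27me3 summits with H3K4me3 within 30 bases were among the strongest of their block. Members with H3K4me3 within 30 bases had a median H3K27me3 score of 454 for line A and 550 for line B, against 112 and 124 for the others, and stood at a median percentile of 88.9 and 90.9 within their block. Spacing of H3K27me3 summits was closer in the blocks than in the regions with distances over 100 bases. How far this enters the distances was not tested.

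**Figure D5:**
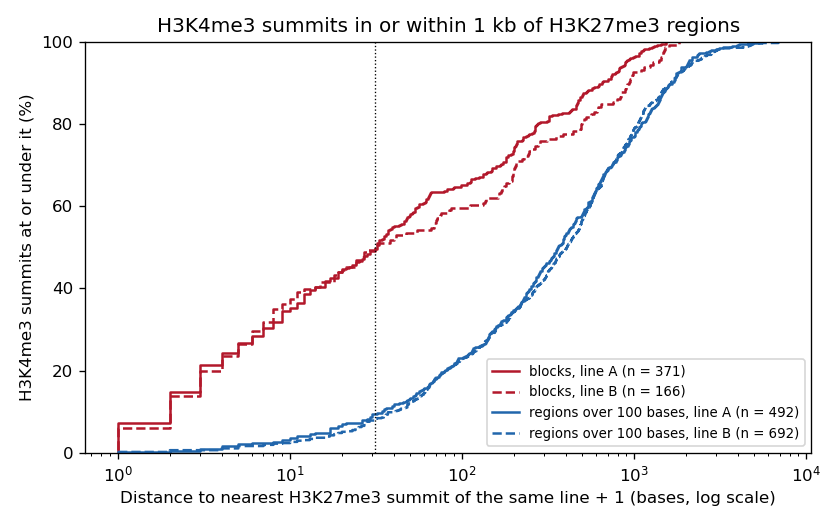
Curves give the percent of H3K4me3 summits (vertical axis) whose nearest H3K27me3 summit of the same line lies at or under a distance plus 1 in bases (horizontal axis, log scale), for blocks and for regions with distances over 100 bases, in lines A and B. The dotted line marks 30 bases, where the block curves have reached 49.6% and 50% and the others 9.35% and 8.24%.

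At some places all 4 libraries had a summit within 30 bases. This held for 68 of the 371 H3K4me3 summits of line A and 67 of the 166 of line B, in 39 blocks. The same count was not made in the other regions or over all autosomal H3K4me3 summits. Whether such places are particular to the blocks was thus not tested. In the block chr29:19399037-19448739, which had the most H3K4me3 summits, 21 of line A and 14 of line B, one such place was base 19427951. There the H3K4me3 score was 79.3 for line A and 83.2 for line B, 1 base apart, with the H3K27me3 summit of each line at most 1 base away. Around the strongest H3K27me3 summits of that block, at 19442297 and 19442298, H3K4me3 had its own highest summits, scoring 150 at 19442279 for line A and 94.3 at 19442268 for line B.

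After the chromosome 29 block and the blocks on chromosomes 27 and 4 described above, the most H3K4me3 summits lay in chr8:56714301-56855304, with 14 of line A and 9 of line B, and in chr6:17922275-18014899, with 16 and 6.

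H3K4me3 in the blocks scored low, as it did in the regions with distances over 100 bases, and was rarer in line B. Its median score was 9.31 for line A and 17.9 for line B, against 12.3 and 14 in those regions. In the blocks 58 of 371 summits (15.6%) and 43 of 166 (25.9%) scored above the median of their autosomal list. Outside the 5 blocks that differed between lines these medians were 8.06 over 342 summits and 13.6 over 128. More H3K4me3 summits were found in line A in 73 blocks and in line B in 5, although the autosomal list of line B is the longer. In the regions with distances over 100 bases line B had more, 692 against 492. The share found in the other line was near the background for line B and far below it for line A. Of the 166 of line B, 151 (91.0%, Wilson interval 85.6% to 94.4%) had an H3K4me3 summit of line A within 1 kb, against 88.6% of all autosomal H3K4me3 summits of line B. Of the 371 of line A, 155 (41.8%, 36.9% to 46.9%) had one of line B, against 93.7% over the autosomes. The median score of those 155 was 29.4, and the 216 with no partner 6.18. Where partners existed they were close, with a median distance of 6 bases in each direction, against 54 and 53 bases over all autosomal H3K4me3 summits with a partner.

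The blocks just inside the limit of 30 bases were chr6:19789075-19803952 and chr25:484-11514, both at 26 bases, and chr26:1658-12509, at 25. The regions just outside were chr14:991721-1016085 at 33.5 bases, with median scores of 16.9 and 18.7, chr29:27347583-27355878 at 34 bases, with 7.85 and 6.15, and 3 regions tied at 36 bases. Of these chr14:1054548-1091567 had medians of 14.6 and 20.7, chr22:42397073-42438559 279 and 17.8, and chr27:26327458-26389130 412 and 38.4. Between 30 and 100 bases lay 31 regions in all.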

How the data were processed

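The submitters' processing notes name BWA, MACS2 and the UMD3.1 build, without versions. Peak names carry the paired-end option of MACS2, and each library has a list of its own, per the files. Filters and the use of the inputs as control are not given in the sources used here. For each peak the authors deposited a 1-base position and a score, read here as −log10 p (or q) because the lowest score of each list is just above 2. Which of these it is remains unstated. The lists used here hold no read counts, so depth is unknown.

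The rule was applied to the deposited positions, counted from 1. An H3K4me3 summit belonged to a block when it lay inside or within 1 kb. The named blocks are the 10 with most members, the 5 with the highest and the 5 with the lowest median score (mean of lines), the 5 with most H3K4me3 summits, and 3 on either side of the limit of 30 bases. All others were chosen after the values were seen. The members, lists and comparisons were chosen with earlier results of these data known. No test was made: each line has 1 library per mark, and places in 1 library are not replicates. As a check of the code only, the rule was run on simulated lists, where it found 50 of 50 regions planted with close summits and 0 of 50 with loose ones. Every planted summit was given to both lines, unlike in the real lists, so this says nothing about how the rule does on them. Median distances near the limit of 30 bases were not simulated. Chain gap, distance limit, fewest summits, score filters, H3K4me3 distances and single lines were varied. The tools were pandas 2.3.3, numpy 2.4.6 and scipy 1.17.1 under Python 3.11.15, with figures by matplotlib 3.10.9.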

Additional observations from a re-analysis of the deposited data

Results flagged for a closer look

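The rule was also met outside the autosomes, in summits that no comparison above uses and for which there is no control list. On the X chromosome 13 of 147 regions with at least 5 summits of each line met it, with 153 summits of line A at a median score of 64.0 and 141 of line B at 71.9. On unplaced sequences of the assembly 18 of 28 such regions met it, on 18 sequences, with 107 summits at a median of 29.8 and 100 at 26.7.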

How the results depend on the processing

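Of 65 alternatives 57 stayed within 1.5 times of a count, 1 SD between lines, or the Wilson interval of the share, and 8 moved further. Of the 65, 7 were added after the data were seen. The number of blocks, 152, was 235 with at least 3 summits of each line and 91 with at least 10, while the number of members stayed between 6830 and 8334. Counting 1 line at a time gave 3608 to 4109 members, by construction, and H3K4me3 in 44.7% to 60.5% of blocks, against 44.1% with both lines required. With H3K4me3 limited to the higher-scoring part of each list (above its median), 6.58% of blocks had H3K4me3 of both lines and 1.56% of members had it within 1 kb, against 8.11%. Within 2 kb that share was 14.8%. A single line cannot move a mean of the lines past their SD, so such runs among the 57 were fixed by construction. The median distance of H3K4me3 in blocks to the other line was 3123 bases in line A and 8 in line B, so their mean describes neither. The SD of that distance, 2203 bases, exceeds its mean of 1565.5, so its alternatives had little room to move. No paired analysis was possible because each line has 1 library per mark and no result comes from a test. Depth is unknown, so a missing weak summit in a line may lie under its calling limit.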

Other observations

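The strongest H3K27me3 summits of the lines differed in how they scored in the other line. Of the 20 highest-scoring autosomal summits of line A 13 lay in blocks, and 12 of the 20 scored over 3 times as high as their nearest summit of line B, 6 of them outside the blocks. Of the 20 highest of line B 16 lay in blocks, and none scored over 3 times its nearest summit of line A: the ratios ran from 0.729 to 1.23. In each line 19 of the 20 had a counterpart at most 30 bases away. The highest summit of line A, at base 26365183 of chromosome 27 in a region with a median distance of 31 to 100 bases, scored 8469 and its partner in line B, 3 bases away, 912. In chains with under 5 summits of a line, the summit at 83185929 on chromosome 2 scored 5792 in line A and 462 in line B, that at 1250773 on chromosome 13 4729 and 272, and that at 46914369 on chromosome 8 3449 and 85.2.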
